A study of Mus musculus with 15 samples.

Results

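The parotid bud of the mouse embryo was examined layer against layer, as the epithelium of the parotid gland (PG) compared with the mesenchyme around it. The comparison rests on 3 libraries of PG epithelium and 4 of PG mesenchyme, 7 of the 15 libraries of the study, and on every gene of the count table except the spike-in RNA. All embryos were of the ICR strain, an outbred stock, and both layers came from embryonic day 12. The labels give no mutation and no treatment for any group. The remaining libraries hold submandibular gland (SMG) epithelium (n = 4) and mesenchyme (n = 4) from embryonic day 11.5, so that gland and stage change together. Per the labels the replicates were independent biological samples. The sources used here do not say how the layers were parted or how many glands went into a sample.

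The parotid is the salivary gland that lies before the ear. It starts as a thickening of the oral epithelium that sinks as a bud into a condensation of mesenchyme, most of it derived from the neural crest. Epithelial cells are held together by E-cadherin, tight junctions, desmosomes and keratin filaments and rest on a basement membrane. Mesenchymal cells lie in a matrix of fibrillar collagen and send the growth factors that drive the bud to grow, of which FGF10, acting on the epithelial receptor FGFR2, is the best known. Vessels, macrophages, muscle precursors and nerve fibres run through the same mesenchyme.

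Total gene counts ran from 24128898 to 26514342 in PG epithelium and from 20561142 to 26006021 in PG mesenchyme, with 24422 to 25865 genes detected per library. Replicates of a layer correlated at 0.981 to 0.992 across genes (log2 CPM), and no 2 of them were alike to within sampling noise. Levels are given as CPM, counts relative to the library size, corrected by TMM factors, where 1 read is worth a median of 0.0416 CPM. Values of single libraries follow the order of the replicate numbers, 1 to 3 in epithelium and 1 to 4 in mesenchyme. Differences are fitted log2 values, epithelium minus mesenchyme, ± standard error, so that positive values are higher in epithelium.

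Both layers matched their labels, but 2 libraries stood apart. For each of 38 epithelial identity genes with at least 10 CPM in PG epithelium, the level in a mesenchyme library was expressed as a percent of the epithelial mean. The median of these percents was 18.1% in PG mesenchyme replicate 1 and 3.25, 2.89 and 3.88% in replicates 2 to 4. The same measure for 36 mesenchymal identity genes gave 2.0, 7.58 and 1.71% in PG epithelium replicates 1 to 3. PG mesenchyme replicate 1 held the most epithelial RNA and PG epithelium replicate 2 the most mesenchymal RNA. In SMG mesenchyme the epithelial genes stood at 0.142 to 0.495%, below every PG mesenchyme library. The mesenchymal genes stood at 1.29, 1.41, 4.86 and 0.843% in SMG epithelium replicates 1 to 4. There SMG replicate 3 lay above PG epithelium replicates 1 and 3.

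**Figure D1:**
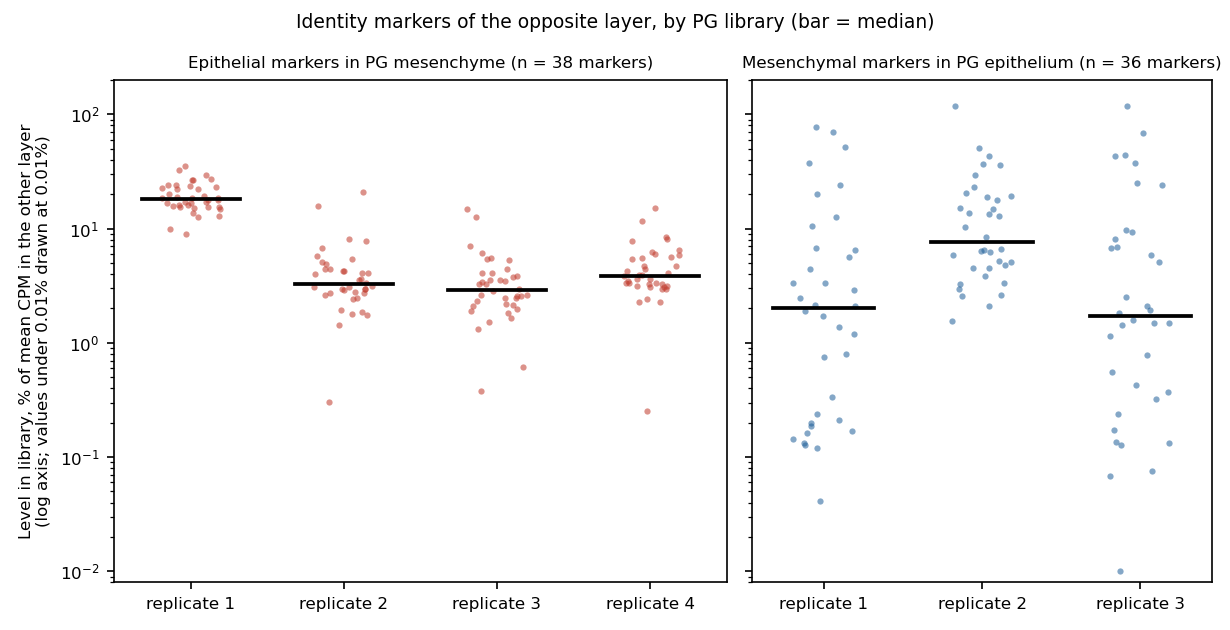
Level of each identity marker of the opposite layer in the 4 PG mesenchyme libraries (left, 38 epithelial markers) and the 3 PG epithelium libraries (right, 36 mesenchymal markers), as percent of the mean in its own layer, on a log axis. Each point is a marker and each bar the median, highest in mesenchyme replicate 1 (18.1%) and in epithelium replicate 2 (7.58%).

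The percents of single markers were close together in PG mesenchyme and far apart in PG epithelium. In mesenchyme replicate 1 the lower and upper quartiles of the epithelial markers were 15.6 and 22.9%, and in replicate 2 they were 2.73 and 4.42%. Ehf, an ETS factor gene of epithelia, was the lowest marker in mesenchyme replicates 2 to 4, at 0.306, 0.382 and 0.254%. In epithelium replicate 1 the quartiles of the mesenchymal markers were 0.206 and 6.58%, and in replicate 2 they were 4.55 and 19.2%. Results are those of all 7 libraries unless stated. Some are also given without these 2 libraries, that is, with 2 of epithelium and 3 of mesenchyme, or without a single library.

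The comparison between the layers asked which genes mark the epithelial bud and which its mesenchyme. Of 18940 genes tested, 4139 were higher in epithelium (21.9%) and 4582 lower (24.2%), together 46% (edgeR quasi-likelihood test, adjusted p under 0.05). Counts for gene lists below use the same threshold and are to be read beside 21.9% higher and 24.2% lower. At a log2 difference of at least 1 there were 1945 higher (10.3%) and 2859 lower genes (15.1%). Libraries of the layers did not overlap for 22.2% of the genes with epithelium above and for 24.8% with mesenchyme above. In tissue pieces like these, fewer cells of a type and less RNA per cell cannot be told apart. A further 1165 genes had an unadjusted p under 0.05 and were not called.

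Most of the large fitted differences lay on the mesenchymal side. Among called genes 42 were higher in epithelium by a log2 of 5 or more, and 420 were lower by as much. Without the 2 libraries these numbers were 138 and 742. In that fit 4029 genes were higher (20.8%) and 4665 lower (24%), 3639 and 4087 of them called in the same direction in both fits and 0 in opposite directions. The call was lost for 993 genes and gained for 878. Beside this, the lower quartile of the epithelial identity markers was 2.15 to 15.6% of their epithelial level in PG mesenchyme. That of the mesenchymal markers was 0.206 to 4.55% in PG epithelium. The part of this in the unequal numbers of large differences was not tested.

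**Figure D2:**
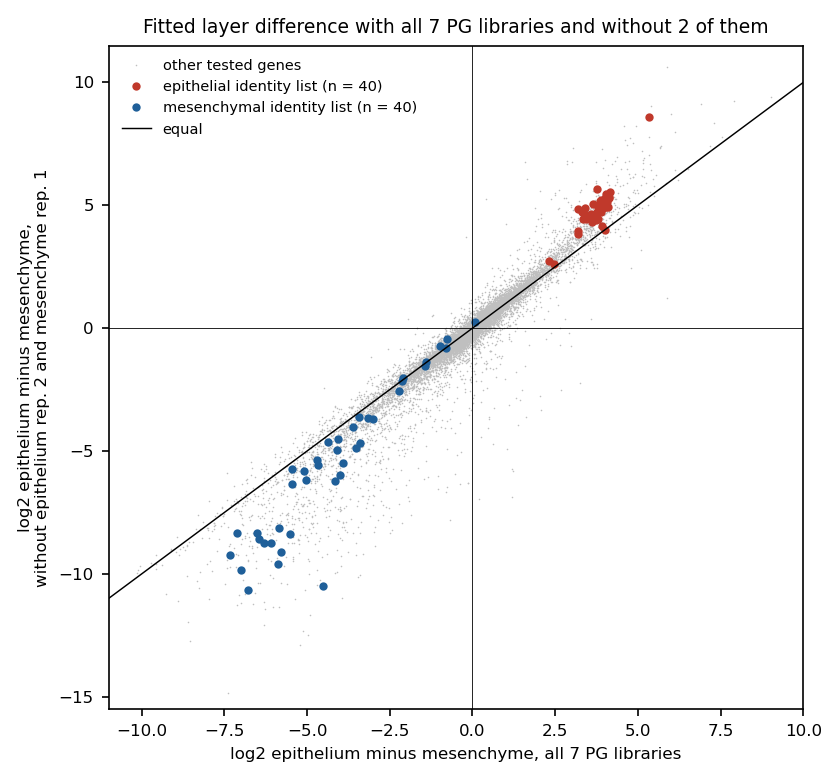
Fitted log2 difference of every tested gene with all 7 PG libraries (x axis) and without PG epithelium replicate 2 and PG mesenchyme replicate 1 (y axis). Grey points are genes, red and blue points the epithelial and mesenchymal identity lists (40 genes each) and the line marks equal values. The red points form a compact group whose median moves from 3.78 to 4.86, while the blue points are drawn out and their median moves from -4.27 to -5.52.

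Every gene of the epithelial identity list (40 of 40) was higher in PG epithelium, with a median log2 difference of 3.78 against -0.01 for all genes tested. The quartiles were 3.5 and 4.0, and the range ran from Itgb6 (2.3) at the low end to Ehf (5.35) at the high end. Without the 2 libraries the quartiles were 4.44 and 5.14 and the range 2.62 (Marveld2) to 8.57 (Ehf). The mesenchymal list had quartiles of -5.79 and -3.12, and 38 of its 40 genes were lower in epithelium. Lmo4, a LIM-only adaptor gene, and Mfap5, a microfibril gene, were the 2 that were not called (0.07 ± 0.24, adjusted p = 0.85 and -0.76 ± 0.6, adjusted p = 0.33).

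Cdh1, which encodes E-cadherin (ENSMUSG00000000303, chromosome 8, 106603351 to 106670246, plus strand, GRCm38), had 348, 383 and 449 CPM in epithelium and 66.3, 7.62, 7.16 and 12.9 in mesenchyme. The layers did not overlap, and mesenchyme replicate 1 lay highest in its group (log2 difference 4.07 ± 0.77, adjusted p = 8.58e-04, 5.43 without the 2 libraries). Epcam, an adhesion molecule of nearly all epithelia (ENSMUSG00000045394, chromosome 17, 87635979 to 87651129, plus strand), had 546, 442 and 484 CPM against 92.1, 13.4, 12.2 and 16. The epithelial libraries lay close together and the mesenchymal ones again split into replicate 1 and the rest (log2 difference 3.88 ± 0.63, adjusted p = 2.60e-04, 5.2 without the 2). Ehf (ENSMUSG00000012350, chromosome 2, 103263433 to 103303278, minus strand) had 125, 40.1 and 63.9 CPM in epithelium and 6.8, 0.233, 0.292 and 0.194 in mesenchyme. It differed more than any other gene of the list (log2 difference 5.35 ± 0.91, adjusted p = 3.81e-04, 8.28 without mesenchyme replicate 1), and its epithelial level was highest in replicate 1.

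Regulators that hold cells in the epithelial state were higher in epithelium as a group, 13 of 13 tested. They include Esrp1 and Esrp2, splicing factors that set the epithelial isoform of FGFR2, and Grhl1, Grhl2, Ovol1 and Ovol2, repressors or activators that keep epithelial genes on. Esrp1 (ENSMUSG00000040728, chromosome 4, 11331933 to 11386783, minus strand) stood at 228, 259 and 275 CPM against 39, 6.14, 5.58 and 7.5 (log2 difference 4.13 ± 0.61, adjusted p = 1.17e-04). Grhl2 (ENSMUSG00000022286, chromosome 15, 37233036 to 37363569, plus strand) stood at 129, 141 and 185 CPM against 23.3, 4.24, 2.33 and 5.08 (log2 difference 4.12 ± 0.58, adjusted p = 7.52e-05). For both genes the 3 epithelial libraries lay above all 4 mesenchymal ones, and mesenchyme replicate 1 carried the highest mesenchymal level. Among 16 regulators of the mesenchymal state 11 were lower in epithelium and 1, Snai3, was higher (1.08, 1.36 and 1.45 CPM against 0.921, 0.427, 0.125 and 0.145, log2 difference 1.66 ± 0.53, adjusted p = 0.018). The call on Snai3 was lost without epithelium replicate 3 (adjusted p = 0.054) or mesenchyme replicate 4 (0.051). Snai3 was not called higher with the PG libraries alone either.

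**Figure D3:**
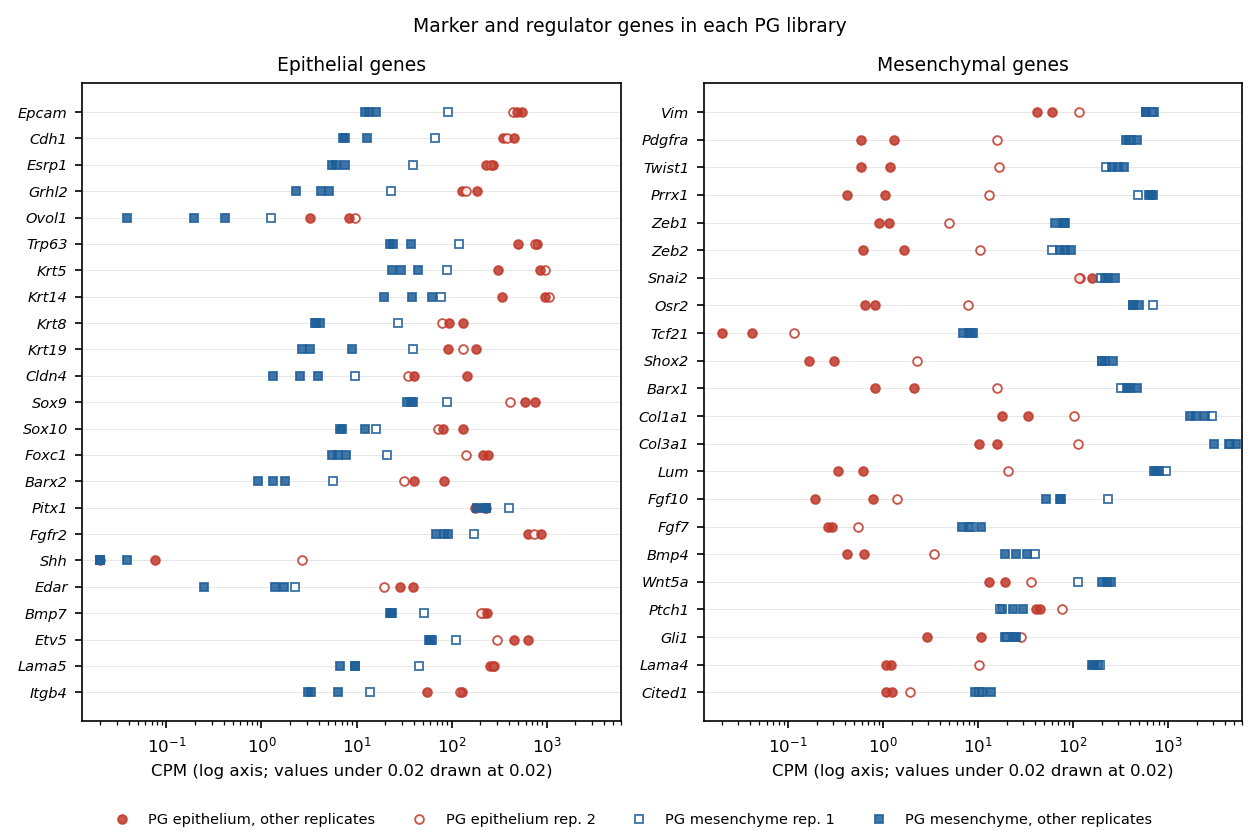
CPM of 23 epithelial and 22 mesenchymal genes in each PG library on a log axis, red circles for epithelium and blue squares for mesenchyme, with open symbols for epithelium replicate 2 and mesenchyme replicate 1. For most epithelial genes the open square is the highest of the mesenchymal points (Epcam 92.1 CPM against 12.2 to 16) and for most mesenchymal genes the open circle is the highest of the epithelial points (Lum 20.8 CPM against 0.333 and 0.611). Snai2, Pitx1, Gli1 and Ptch1 do not follow the side on which they are drawn or lie close together.

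Zeb1, a repressor of Cdh1 and other epithelial genes (ENSMUSG00000024238, chromosome 18, 5591860 to 5775467, plus strand), had 0.916, 4.94 and 1.14 CPM in epithelium and 83.2, 80.4, 80.6 and 65.1 in mesenchyme (log2 difference -5.04 ± 0.5, adjusted p = 2.83e-06). Twist1, another driver of the mesenchymal state (ENSMUSG00000035799, chromosome 12, 33957671 to 33959829, plus strand), had 0.583, 16.5 and 1.18 CPM against 222, 255, 295 and 342 (log2 difference -5.51 ± 0.89, adjusted p = 2.54e-04, -8.29 without epithelium replicate 2). In both genes epithelium replicate 2 lay several times above the other epithelial libraries and far below every mesenchymal one. Snai2, a repressor of the same kind, differed less. It had 119, 116 and 159 CPM in epithelium and 196, 219, 234 and 274 in mesenchyme, levels that did not overlap but lay near each other in all 7 libraries (log2 difference -0.82 ± 0.13, adjusted p = 1.45e-04).

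The junctions of the epithelium were almost completely on 1 side. Of 17 tested adherens junction and desmosome genes 14 were higher in epithelium and 0 lower. Desmosomal Dsp, which ties keratin to the membrane, had 161, 310.1 and 259 CPM against 48.2, 9.68, 8.58 and 9.15 (log2 difference 3.69 ± 0.64, adjusted p = 4.24e-04), and Perp had 268, 429.8 and 433 against 65, 16.1, 12.3 and 21.2 (log2 difference 3.72 ± 0.53, adjusted p = 8.36e-05). Pkp1 had the largest difference of the list (log2 difference 4.23 ± 0.53, adjusted p = 2.19e-05). Not called were Dsc3 (6.37, 119.5 and 34.3 CPM against 24.2, 21.3, 22.9 and 15.5, adjusted p = 0.087), in which epithelium replicate 2 lay far above the others and replicate 1 below every mesenchymal library, Pkp2 and Ctnnd1, which encodes a catenin that also binds mesenchymal cadherins. Without epithelium replicate 1 Dsc3 was called higher (1.88, adjusted p = 6.92e-04), and Pkp2 was called higher without that library or without mesenchyme replicate 2 (0.85 and 1.0, adjusted p = 0.042 and 0.0066).

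Tight junction and apical polarity genes gave 24 higher and 0 lower of 27 tested. Claudins, which seal the space between cells, included Cldn6 (194, 197 and 205 CPM against 31.9, 3.73, 4.58 and 4.5, log2 difference 4.15 ± 0.69, adjusted p = 3.08e-04), nearly the same in all 3 epithelial libraries. Cldn4 (ENSMUSG00000047501, chromosome 5, 134945119 to 134946934, minus strand) was uneven, with 145, 35.1 and 39.9 CPM in epithelium and 9.52, 1.32, 3.96 and 2.56 in mesenchyme, highest in epithelium replicate 1 by a wide margin (log2 difference 4.08 ± 0.63, adjusted p = 1.74e-04). Crb3, an apical polarity protein, and Rab25, a GTPase of apical recycling, were higher too (4.11 ± 0.46 and 3.94 ± 0.45). Tjp1, the scaffold ZO-1, Cgnl1 and Llgl1 were not called (Tjp1 109 to 132 CPM against 88.4 to 116). Of all 13 claudins tested 9 were higher and 2 lower, 1 of which was Cldn5 of endothelium (-4.94 ± 0.77, -8.05 without epithelium replicate 2).

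The start regions of the genes were searched for the site that ZEB and SNAI proteins bind, the E2-box CACCTG, on either strand within 250 bases before the gene start. The windows come from RefSeq (GRCm38.p6), whose table held 22 of the 40 epithelial and 22 of the 40 mesenchymal identity genes. The site was present in 15 of 22 epithelial genes (68.2%), in 1 of 22 mesenchymal genes, Snai1 (4.55%), and in 5252 of all 27025 genes of the table (19.4%), where a gene counts if any of its windows has the site. The windows of 20 tight junction genes were in the table, and 12 of them had it (60%). The lists share members, and Ap1m2, Cldn4, Cldn6, Cldn7, Crb3, Rab25 and Tjp3 are counted in both. Of the epithelial state regulators 6 were in the table and 3 had the site (50%). They were Elf1, Elf3 and Grhl3, and Elf3 and Grhl3 are also counted among the identity genes. The median share of G and C was 57.4 and 57.6% in the epithelial and mesenchymal windows and 52.4% in all. The general E-box CANNTG, which includes CACCTG, was present in 18 of 22 epithelial (81.8%) and 7 of 22 mesenchymal genes (31.8%). Over all genes its share was 69.3%, so the mesenchymal genes were low in E-boxes in general and not in CACCTG only. A Grainyhead-like site, AACCNGTT, was present in 1 of 22 epithelial, 0 of 22 mesenchymal and 540 of all 27025 genes (2%). The windows that follow, with each CACCTG or its reverse complement in capitals, are those of 2 epithelial genes that carry it near the start and of Twist1, which has none.
Epcam (chr17:87635729-87635978, plus strand): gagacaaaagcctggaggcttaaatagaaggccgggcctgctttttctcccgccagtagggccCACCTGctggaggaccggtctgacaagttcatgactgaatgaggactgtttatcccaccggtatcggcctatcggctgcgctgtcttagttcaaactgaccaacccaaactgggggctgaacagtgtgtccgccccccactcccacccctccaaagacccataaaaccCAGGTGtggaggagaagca
Cldn4 (chr5:134946935-134947184, minus strand): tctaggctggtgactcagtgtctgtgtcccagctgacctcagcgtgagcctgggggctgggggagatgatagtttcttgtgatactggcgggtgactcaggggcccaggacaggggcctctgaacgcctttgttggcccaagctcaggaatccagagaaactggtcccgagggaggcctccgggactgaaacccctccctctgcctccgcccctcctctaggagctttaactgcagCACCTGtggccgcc
Twist1 (chr12:33957421-33957670, plus strand): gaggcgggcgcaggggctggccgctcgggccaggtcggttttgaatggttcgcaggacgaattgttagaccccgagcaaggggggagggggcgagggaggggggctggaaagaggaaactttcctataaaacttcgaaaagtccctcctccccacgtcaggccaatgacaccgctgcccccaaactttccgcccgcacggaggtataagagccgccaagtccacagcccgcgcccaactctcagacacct
In Epcam the matches begin 187 and 19 bases before the start and in Cldn4 14 bases before it. Both genes were higher in epithelium, and Twist1 was lower. A match of letters is a description of the window and does not show binding.

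Membrane-bound serine proteases and their inhibitors, which act on the surface of epithelia, were higher in epithelium in 10 of 10 cases. St14, or matriptase, had 121, 116 and 141 CPM against 21.5, 2.22, 2.62 and 5.13 (log2 difference 4.01 ± 0.61, adjusted p = 1.48e-04), and its inhibitor Spint1 had 83, 99.8 and 94.1 CPM against 14.6, 3.11, 3.75 and 5.42 (log2 difference 3.79 ± 0.39, adjusted p = 4.35e-06). Hpn, or hepsin, had 29.4, 18.9 and 26.9 CPM against 5.4, 0.972, 0.666 and 0.774 (log2 difference 3.68 ± 0.55, adjusted p = 8.01e-05). All 3 epithelial libraries were above all 4 mesenchymal ones for each of them. In the TMPRSS family 9 of 10 tested genes were higher and 0 lower.

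Of 24 keratins tested 20 were higher in PG epithelium and 2 lower. With the PG libraries alone 14 were higher and 2 lower. Krt15 was the most abundant per length, at 812 CPM per kb of exon in epithelium, ahead of the basal keratins Krt14 (448) and Krt5 (321). Krt14 (ENSMUSG00000045545, chromosome 11, 100203162 to 100207548, minus strand) had 339, 1061 and 963 CPM in epithelium and 78.1, 38.6, 19.5 and 61.9 in mesenchyme, with replicate 1 the lowest of the epithelial libraries (log2 difference 3.99 ± 0.51, adjusted p = 3.45e-05). Krt5 followed it with 307, 964 and 848 CPM against 89.995, 29.1, 23.9 and 44 (log2 difference 3.92 ± 0.51, adjusted p = 4.52e-05). The simple keratin gene Krt8 went the other way between epithelial libraries, at 134, 78.6 and 94.8 CPM, against 27.3, 4.16, 3.62 and 3.73 in mesenchyme (log2 difference 3.4 ± 0.62, adjusted p = 6.63e-04). Krt17, a keratin of stressed or appendage epithelium, had 15.5, 192 and 24.4 CPM against 14.9, 1.75, 3.08 and 5.23, with epithelium replicate 2 alone high (log2 difference 3.64 ± 0.84, adjusted p = 0.0032, 1.67 without that library). Reads of near-identical keratin genes can be shared out wrongly among Krt14, Krt17 and their relatives, so these levels are uncertain.

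Markers of the periderm and of surface keratinocytes were present as well. Of 20 tested 17 were higher in epithelium and 1, the cell cycle inhibitor gene Cdkn1a, was lower (12.4, 15.3 and 10.1 CPM against 46.6, 44.1, 37.6 and 30.3, log2 difference -1.66 ± 0.36, adjusted p = 0.0014). Sfn, which encodes 14-3-3 sigma, had 109.7, 202 and 227 CPM against 39.5, 8.55, 5.71 and 11.2 (log2 difference 3.47 ± 0.57, adjusted p = 2.86e-04), and Ppl, periplakin, 29.4, 47.1 and 48.3 against 7.42, 2.41, 1.21 and 2.03 (log2 difference 3.67 ± 0.46, adjusted p = 1.91e-05). The summed level of the list was 740.2 to 1149 CPM in epithelium and 124 to 273 in mesenchyme. How much of the epithelial RNA came from surface epithelium was not tested.

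On the mesenchymal side the fibrillar collagens stood out. Col3a1 had 10.2, 113 and 15.7 CPM in epithelium and 4477, 3023, 5184 and 4349.8 in mesenchyme (log2 difference -6.53 ± 1.26, adjusted p = 0.001), with epithelium replicate 2 the highest of its group. Lum, a proteoglycan that spaces collagen fibrils (ENSMUSG00000036446, chromosome 10, 97565128 to 97572703, plus strand), had 0.333, 20.8 and 0.611 CPM against 945, 809.9, 719.8 and 755 (log2 difference -6.79 ± 1.47, adjusted p = 0.0022, -10.72 without that library). Per length, Lgals1 (galectin 1) was the most abundant of the strongly mesenchymal genes at 919.6 CPM per kb in mesenchyme, before Col3a1 (434), Actc1 (351) and Col1a1 (344). Prrx1, a homeobox gene of limb and head mesenchyme (ENSMUSG00000026586, chromosome 1, 163245119 to 163313710, minus strand), had 1.04, 13.1 and 0.42 CPM against 480.2, 638, 668 and 686 (log2 difference -6.99 ± 1.03, adjusted p = 1.24e-04). For Col3a1, Lum and Prrx1 epithelium replicate 2 stood several times above the other epithelial libraries.

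Of 46 interstitial matrix genes 36 were lower and 5 higher in epithelium. The collagen VI genes Col6a1, Col6a2 and Col6a3, which form beaded filaments, were lower, with differences of -6.3 ± 0.93, -5.84 ± 0.86 and -5.77 ± 1.01. Lox, which crosslinks collagen, and Efemp1, a fibulin, were lower too, with -6.45 ± 0.94 and -6.43 ± 0.69. The matrix genes higher in epithelium included Vcan, a large proteoglycan (579, 438 and 466 CPM against 146, 238, 213 and 197, log2 difference 1.31 ± 0.14, adjusted p = 2.28e-06), Fmod, fibromodulin (15.1, 52.1 and 43.8 CPM against 6.67, 7.85, 5.66 and 5.13, log2 difference 2.54 ± 0.35, adjusted p = 3.03e-05), Col14a1 (1.87 ± 0.39) and Col12a1 (0.66 ± 0.14). For Vcan and Fmod the layers did not overlap. In the collagen family as a whole 12 genes were higher in epithelium and 25 lower of 42. Without epithelium replicate 2 the difference of Col6a3 was -9.1.

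The basement membrane was divided between the layers, with 15 higher and 9 lower of 30 genes. The laminin chain gene Lama5 was higher in epithelium, at 255, 283 and 272 CPM against 45.7, 6.72, 9.7 and 9.63 (log2 difference 3.91 ± 0.55, adjusted p = 8.44e-05). The vascular and mesenchymal chain Lama4 was lower (1.21, 10.1 and 1.07 CPM against 193, 166, 185 and 159.9, log2 difference -5.4 ± 0.66, adjusted p = 2.42e-05). The linkers Nid1 and Nid2 were mesenchymal (-3.52 ± 0.26 and -3.49 ± 0.35), while the type IV collagen chains Col4a5 and Col4a6 were epithelial (2.77 ± 0.18 and 4.57 ± 0.33). Lamc1, the chain shared by most laminins, was also higher in epithelium (1.34 ± 0.14), and Hspg2, perlecan, was not called (-0.04 ± 0.31, adjusted p = 0.94). Hemidesmosome genes, which anchor the epithelium to that membrane, were higher in 12 of 13 cases, led by Col17a1 (288, 370.3 and 616 CPM against 48.5, 9.05, 5.87 and 20.7, log2 difference 4.34 ± 0.59, adjusted p = 6.39e-05). The exception, Dst, was not called (adjusted p = 0.054) but was called higher without epithelium replicate 1 (0.98, adjusted p = 0.0024).

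Matrix proteases were mostly mesenchymal, 17 lower and 2 higher in epithelium of 26. Mmp16, a membrane-bound metalloprotease, had 4.41, 8.24 and 6.98 CPM against 124, 101, 105 and 88.5 (log2 difference -4.0 ± 0.2, adjusted p = 2.78e-09), and Reck, an inhibitor of such proteases, had 10.7, 10.5 and 12.7 against 95.6, 83.4, 83.1 and 75.6 (log2 difference -2.9 ± 0.14, adjusted p = 1.74e-09). Those higher in epithelium were Adamts18 (175, 121 and 156 CPM against 10.4, 1.36, 1.83 and 3.73, log2 difference 5.13 ± 0.53, adjusted p = 6.14e-06) and Adamts19 (log2 difference 2.24 ± 0.21, adjusted p = 9.29e-07). Adamts18 was among the genes with the largest epithelial differences outside the identity list. Others were Rasgrp1, an activator of RAS (60.6, 26.8 and 41.6 CPM against 2.5, 0.35, 0.0833 and 0.484, log2 difference 5.66 ± 0.65, adjusted p = 9.46e-06), Steap4, a metalloreductase (46.1, 8.78 and 12.8 CPM against 1.14, 0.622, 0.167 and 0.194, log2 difference 5.39 ± 0.87, adjusted p = 1.68e-04), and Rassf10 (log2 difference 5.11 ± 0.72, adjusted p = 7.59e-05). Steap4 was several times higher in epithelium replicate 1 than in the other 2. Slc26a9, an anion transporter, led the solute carriers (25.9, 9.87 and 14.2 CPM against 0.176, 0, 0.0833 and 0, log2 difference 7.91 ± 0.65, adjusted p = 2.38e-07).

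Transcription factors of the salivary bud gave 25 higher and 7 lower of 43 tested. Elf5, an ETS factor of glandular epithelium, had 18.7, 12 and 21.6 CPM against 2.9, 0.233, 0.167 and 0.0484 (log2 difference 4.38 ± 0.76, adjusted p = 3.27e-04, 6.77 without mesenchyme replicate 1). Barx2, a homeobox gene of the lacrimal and salivary buds, had 82.6, 31.2 and 40.6 CPM against 5.7, 1.79, 1.33 and 0.92 (log2 difference 4.4 ± 0.53, adjusted p = 1.84e-05), and Trp63, which keeps basal cells, had 497, 754 and 786 against 121, 24.5, 22.3 and 37.1 (log2 difference 3.73 ± 0.56, adjusted p = 1.42e-04). Barx2 was highest and Trp63 lowest in epithelium replicate 1, and every epithelial library lay above the mesenchyme for both. Dlx3, a homeobox gene of ectodermal organs, had 32.7, 95.5 and 64.5 CPM against 6.93, 2.18, 3.75 and 4.02 (log2 difference 3.93 ± 0.46, adjusted p = 1.14e-05). Otx1, known from the forebrain and sense organs, had 11.4, 60.05 and 35.1 CPM against 1.76, 0.583, 0.958 and 1.16 (log2 difference 5.0 ± 0.48, adjusted p = 1.07e-06).

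Not all factors on the bud list were epithelial. Tbx2 and Tbx3 were mesenchymal, at 6.41, 12 and 9.58 CPM against 288, 183, 281 and 298 (log2 difference -4.81 ± 0.52, adjusted p = 8.83e-06) and 9, 28.7 and 23.1 against 291, 255, 353 and 302 (log2 difference -3.89 ± 0.38, adjusted p = 2.90e-06). Msx1 was lower as well (0.583, 18.1 and 1.6 CPM against 102, 143, 182 and 357, log2 difference -4.85 ± 0.9, adjusted p = 7.17e-04, -7.48 without epithelium replicate 2), while its relative Msx2 was higher (3.21, 36.6 and 19.5 CPM against 1.18, 0.47, 0.999 and 4.84, log2 difference 3.42 ± 0.8, adjusted p = 0.0028). Msx2 stood below 5 CPM in epithelium replicate 1 as it did in all of the mesenchyme. Pitx1 was not called. It had 178, 227 and 229 CPM in epithelium and 402, 229, 230.0 and 185 in mesenchyme, with mesenchyme replicate 1 the highest of all 7 (adjusted p = 0.24).

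Among 48 mesenchymal transcription factors tested 30 were lower and 8 higher in epithelium, and without the 2 libraries 37 were lower and 7 higher. Barx1, of the mesenchyme of jaw and stomach, had 0.833, 15.7 and 2.14 CPM against 317, 366, 395 and 467 (log2 difference -5.95 ± 0.75, adjusted p = 3.32e-05). Lhx6, a LIM homeobox gene of the jaw arch, had 0.0416, 1.55 and 0.191 CPM against 97.5, 71.8, 112 and 136 (log2 difference -7.42 ± 0.63, adjusted p = 9.72e-07), and Tbx15 had 0.125, 6.45 and 0.0763 against 135, 199, 271 and 277 (log2 difference -6.62 ± 1.06, adjusted p = 2.30e-04). The genes higher in epithelium included Meis1 (464, 368 and 522 CPM against 54.3, 24.6, 17.3 and 23.8, log2 difference 3.91 ± 0.46, adjusted p = 1.81e-05), Meis2 (396, 378 and 404 against 77.4, 33.5, 38.2 and 44.8, log2 difference 3.02 ± 0.21, adjusted p = 9.90e-08), Foxp1 (log2 difference 1.7 ± 0.1, adjusted p = 1.38e-08) and Runx1 (log2 difference 1.59 ± 0.24, adjusted p = 6.88e-05). Meis1 and Meis2, cofactors of HOX proteins, did not overlap between the layers. Without epithelium replicate 2 the difference of Tbx15 was -11.05.

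Pax1, a gene of the sclerotome and pharyngeal pouches, had 2.76, 120.2, 130.2 and 219 CPM in mesenchyme and 0.0833, 2.49 and 0.0763 in epithelium (log2 difference -7.04 ± 1.33, adjusted p = 8.30e-04). Hoxd1 had 0.176, 30.6, 53.5 and 92.9 CPM against 0, 1.44 and 0.0763 (log2 difference -6.43 ± 1.69, adjusted p = 0.011), Hoxd8 0.746, 10.6, 8.58 and 19.4 against 0, 0.427 and 0 (log2 difference -6.04 ± 1.21, adjusted p = 9.01e-04), and Hand2, a factor of the lower jaw, 0.746, 10.3, 5.46 and 8.9 against 0, 0.233 and 0.0382 (log2 difference -6.03 ± 1.09, adjusted p = 4.57e-04). Without epithelium replicate 2 the difference of Hoxd1 was -9.96, and Hoxd8 then had no count in epithelium. Mesenchyme replicate 1 lay far below the other 3 for all 4 genes, which are given for this. In the other direction Fgf10 and Nkx3-2, a gene chosen after its values were seen, were highest in replicate 1 (233 CPM against 52.2 to 75.1, and 11.7 against 0.194 to 2.33). Altogether 12 genes with at least 5 CPM stood in that library at 3 times or more the level of any other PG library.

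Of 17 FGF ligand genes tested 10 were lower and 5 higher in epithelium, and of 8 receptor and co-receptor genes 4 were lower and 2 higher. The shares over all genes tested were 24.2% lower and 21.9% higher. Fgf10 (ENSMUSG00000021732, chromosome 13, 118669791 to 118792115, plus strand) had 0.791, 1.4 and 0.191 CPM in epithelium and 233, 72.6, 75.1 and 52.2 in mesenchyme, without overlap (log2 difference -7.09 ± 0.81, adjusted p = 1.54e-05). Fgf18 and Fgf7 were lower in epithelium too (-5.32 ± 0.63 and -4.51 ± 0.55). Epithelial ligands were Fgf9 (48.1, 76.4 and 63.3 CPM against 28.1, 20.3, 18.1 and 16.4, log2 difference 1.59 ± 0.27, adjusted p = 2.33e-04), Fgf1 (37.1, 17.9 and 27.1 against 1.76, 2.37, 2.08 and 0.436, log2 difference 4.02 ± 0.39, adjusted p = 1.27e-06) and Fgf8 (7.08, 13.7 and 7.63 against 2.72, 0.0777, 0.416 and 0.774, log2 difference 3.25 ± 0.73, adjusted p = 0.002). The receptor gene Fgfr2 (ENSMUSG00000030849, chromosome 7, 130162451 to 133123350, minus strand) had 642, 742 and 882 CPM in epithelium against 174, 69.2, 82.3 and 92.8 (log2 difference 2.85 ± 0.26, adjusted p = 1.05e-06), and Fgfr3 was also epithelial (2.28 ± 0.39). Fgfr1 and Fgfr4 were mesenchymal, the first by a small margin (197, 144 and 154 CPM against 269.9, 235, 305 and 269.6, log2 difference -0.71 ± 0.14, adjusted p = 6.72e-04) and the second by a large one (-4.94 ± 0.54). The counts do not separate the isoforms of a receptor.

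Genes that respond to FGF signals were higher in epithelium in 9 of 13 cases and lower in 2. Etv5 had 641, 301 and 459 CPM against 112, 57.3, 59.97 and 61.9 (log2 difference 2.68 ± 0.25, adjusted p = 1.39e-06), Etv4 100.5, 78.3 and 107 against 30.8, 18.4, 18.5 and 20.4 (log2 difference 2.11 ± 0.21, adjusted p = 1.53e-06), and the feedback inhibitor Spry1 409, 244 and 408 against 188, 131, 107 and 102 (log2 difference 1.42 ± 0.22, adjusted p = 1.18e-04). Etv5 and Dusp6, a phosphatase that dampens ERK (855, 421 and 590.3 CPM against 374, 229.9, 182 and 199, log2 difference 1.34 ± 0.28, adjusted p = 0.0013), were highest in epithelium replicate 1 and lowest in replicate 2. Etv1 and Spry4 were lower in epithelium (-0.9 ± 0.21 and -0.71 ± 0.21). The call on Spry4 was lost without epithelium replicate 2 (-0.56, adjusted p = 0.053). Without the 2 libraries 10 were higher and 1 lower.

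WNT ligands divided nearly evenly, 10 higher and 8 lower of 20 with the R-spondins. Wnt7b was epithelial (217, 528 and 564 CPM against 51.7, 18.6, 20.2 and 38.5, log2 difference 3.76 ± 0.38, adjusted p = 4.43e-06), with Wnt6 (154, 260.0 and 285 against 33.1, 12.2, 10.9 and 21.5, log2 difference 3.59 ± 0.41, adjusted p = 1.14e-05) and Wnt4 (2.83 ± 0.34). Wnt5a, which signals without beta-catenin, was mesenchymal (12.9, 36.4 and 19.4 CPM against 113, 200.5, 253 and 225, log2 difference -3.11 ± 0.36, adjusted p = 1.01e-05), as were Wnt11 (-4.88 ± 0.58) and the R-spondin gene Rspo3 (-3.52 ± 0.93). Of 20 receptors 10 were higher and 4 lower, among them Rnf43, a ligase that removes receptors (68.9, 67.5 and 78.6 CPM against 8.56, 1.55, 1.67 and 2.61, log2 difference 4.32 ± 0.45, adjusted p = 4.55e-06), and Fzd6 (2.75 ± 0.27). Antagonists were mesenchymal in 10 of 15 cases and epithelial in 3, with Dkk1 (-5.69 ± 0.89), Wif1 (-4.77 ± 0.88) and Frzb (-4.07 ± 1.03) on 1 side and Kremen2 (169, 192 and 231 CPM against 48.8, 24.2, 26 and 22.5, log2 difference 2.7 ± 0.36, adjusted p = 3.79e-05) on the other. Response genes of the beta-catenin branch were divided. Axin2 had 8.7, 14.9 and 13.1 CPM against 44.5, 43.7, 69.5 and 62.5 (log2 difference -2.17 ± 0.22, adjusted p = 1.69e-06) and Lef1 was lower too (-1.65 ± 0.24), while Sp5 was higher (24.4, 10.3 and 15.5 CPM against 0.878, 2.68, 4.87 and 9.34, log2 difference 1.92 ± 0.55, adjusted p = 0.01). The call on Sp5 was lost without epithelium replicate 1 (1.53, adjusted p = 0.06), and without epithelium replicate 2 the differences of Rspo3, Wif1 and Frzb were -9.11, -7.41 and -8.09.

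BMP and TGF-beta ligands were mesenchymal in 12 of 16 cases. Bmp2 had 3.62, 6.41 and 3.59 CPM against 95.2, 61.2, 75.1 and 76 (log2 difference -4.08 ± 0.34, adjusted p = 3.91e-07), Bmp4 0.62, 3.42 and 0.42 against 40.1, 19.4, 25.2 and 32.6 (log2 difference -4.29 ± 0.56, adjusted p = 2.93e-05) and Tgfb2 19.3, 21.2 and 15.7 against 101, 133, 113 and 109 (log2 difference -2.61 ± 0.16, adjusted p = 1.69e-08). Higher in epithelium were Bmp7 (2.86 ± 0.23) and, Bmp6 (0.77 ± 0.3, adjusted p = 0.044), a call that was lost on leaving out any 1 library but mesenchyme replicate 4 (adjusted p from 0.06 to 0.13). Of 13 BMP and TGF-beta receptors 4 were higher and 8 lower in epithelium, against 21.9 and 24.2% of all genes tested. Receptors of activin, Acvr2a and Acvr2b, were higher in epithelium (1.31 ± 0.11 and 1.56 ± 0.14) and Tgfbr2 lower (23.4, 22.5 and 16.7 CPM against 83.1, 90.9, 111 and 83.3, log2 difference -2.14 ± 0.16, adjusted p = 9.31e-08). Of 10 response genes 1 was higher and 3 were lower. Id2 was higher (306, 261 and 271 CPM against 80.7, 212, 159 and 198, log2 difference 0.78 ± 0.24, adjusted p = 0.014), Tgfbi was lower (0.958, 12.3 and 2.48 CPM against 278, 219, 192 and 149, log2 difference -5.31 ± 0.71, adjusted p = 5.27e-05), and Id1 and Id3 were not called. Without epithelium replicate 1 Id2 was not called (adjusted p = 0.063) and Id1 was called higher (1.06, adjusted p = 0.0022).

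In the hedgehog pathway the ligand was near the detection limit. Shh had 0, 2.64 and 0.0763 CPM in epithelium and 0, 0.0389, 0 and 0 in mesenchyme, 1 count in all 4 mesenchymal libraries, and the ratio was 85.9 (95% counting interval 14.9 to 3441). The epithelial reads came nearly all from replicate 2, and without that library Shh was not called (1.5, adjusted p = 0.41). The receptor and response gene Ptch1 was higher in epithelium (41.1, 76.9 and 44.8 CPM against 17.2, 17.8, 23.2 and 29.9, log2 difference 1.3 ± 0.25, adjusted p = 5.81e-04). It was highest in epithelium replicate 2, without which its difference was 0.95. The response gene Gli1 was not called with all libraries (2.87, 28.6 and 10.6 CPM against 20.1, 19.1, 24.8 and 23.8, adjusted p = 0.3) and was lower in epithelium without epithelium replicate 2 (-1.71, adjusted p = 0.0018). Gas1, a co-receptor, was mesenchymal (181, 396 and 317 CPM against 529, 540.5, 596 and 709, log2 difference -1.0 ± 0.29, adjusted p = 0.011). The call on Gas1 was lost without epithelium replicate 1 (-0.73, adjusted p = 0.056).

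The Notch pathway had 7 higher and 9 lower genes of 18. The ligand gene Jag2 was higher in epithelium (139, 169 and 190.1 CPM against 30.8, 7.66, 14 and 15.9, log2 difference 3.28 ± 0.33, adjusted p = 2.93e-06), as was Jag1 (0.83 ± 0.2, 0.53 without epithelium replicate 3). Notch1 and the response gene Hes1 were higher too (0.92 ± 0.16 and 1.85 ± 0.19). Dll4, a ligand of vessels, was lower (0, 0.661 and 0.114 CPM against 8.16, 7.07, 10.7 and 10.8, log2 difference -5.11 ± 0.65, adjusted p = 1.42e-05). Edar, the receptor of ectodysplasin, had 39.6, 19.3 and 28.9 CPM against 2.24, 1.71, 0.25 and 1.4 (log2 difference 4.38 ± 0.44, adjusted p = 1.83e-06), while its ligand gene Eda was not called (4.37, 12.9 and 10.5 CPM against 6.41, 7.03, 4.5 and 5.9, adjusted p = 0.16, and 0.029 without epithelium replicate 1). Neuregulin and its receptor lay in opposite layers, Nrg1 in mesenchyme (2.29, 5.95 and 2.75 CPM against 39.8, 15.2, 16.4 and 10.2, log2 difference -2.48 ± 0.44, adjusted p = 2.95e-04) and Erbb3 in epithelium (159, 138 and 154 CPM against 93.2, 55, 56.5 and 43.8, log2 difference 1.27 ± 0.27, adjusted p = 0.0016).

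Of 17 retinoid genes 6 were higher and 7 lower in epithelium. Aldh1a2, which makes retinoic acid, had 0.167, 4.04 and 0.153 CPM in epithelium and 299.6, 116, 106 and 125 in mesenchyme (log2 difference -6.78 ± 0.97, adjusted p = 9.34e-05), and the binding protein gene Crabp1 was mesenchymal too (9.58, 28.4 and 5.38 CPM against 91, 236, 197 and 215, log2 difference -3.67 ± 0.53, adjusted p = 8.36e-05). Aldh1a2 was highest and Crabp1 lowest in mesenchyme replicate 1. Dhrs3, which turns retinal back into retinol, was epithelial (228, 98.9 and 146 CPM against 43, 17.3, 12.7 and 10.1, log2 difference 2.92 ± 0.44, adjusted p = 1.34e-04), as was Cyp26a1, which breaks retinoic acid down (4.69 ± 0.47). Cyp26b1, another degrading enzyme, was mesenchymal (-4.59 ± 0.47). Receptors lay close to equal, with Rarb higher in epithelium (105, 65.2 and 80.1 CPM against 61.1, 37.4, 44.3 and 39.5, log2 difference 0.87 ± 0.17, adjusted p = 4.84e-04) and Rara and Rarg not called.

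Of 42 factors and receptors that guide and feed nerves 11 were higher and 16 lower in epithelium. Over all genes tested 21.9% were higher and 24.2% lower. Nrtn, neurturin, which supports parasympathetic neurons, had 55.9, 49 and 65.1 CPM against 14, 6.45, 6.7 and 8.13 (log2 difference 2.69 ± 0.25, adjusted p = 6.87e-07), and its receptor gene Gfra2 was mesenchymal (0, 1.59 and 0.0382 CPM against 22.8, 38.9, 32.3 and 27.4, log2 difference -5.78 ± 0.9, adjusted p = 1.51e-04, -10.27 without epithelium replicate 2). Ntf5, a neurotrophin, was higher in epithelium (35.8, 48.7 and 46.6 CPM against 13.4, 6.92, 5.33 and 6.63, log2 difference 2.44 ± 0.26, adjusted p = 3.32e-06), as were Ntn1, netrin 1 (1.97 ± 0.33), and Sema3d (328, 338 and 354 CPM against 70.9, 38.8, 30.3 and 35.6, log2 difference 2.95 ± 0.23, adjusted p = 2.27e-07). The semaphorin receptor genes Nrp1 and Plxnd1 were mesenchymal (-4.45 ± 0.61 and -4.59 ± 0.55), as was the chemokine gene Cxcl12 (4.96, 25.8 and 8.13 CPM against 389.9, 584, 623 and 537, log2 difference -5.36 ± 0.48, adjusted p = 1.65e-06). Cxcl14 was not called, with epithelium replicate 1 far below the other libraries (46.2, 413 and 439 CPM against 381, 419, 496 and 612, adjusted p = 0.32).

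Of 62 ligand and receptor pairs listed, 54 had both genes at 5 CPM or more. In 18 the ligand was called higher in epithelium and the receptor in mesenchyme, and in 7 the reverse. In 12 both were mesenchymal and in 4 both epithelial. A mesenchymal ligand met a receptor that was not called in 9 pairs, among them Hgf with Met (-5.73 ± 0.53, and -0.41 ± 0.3 for the receptor) and Igf1 with Igf1r (-4.1 ± 0.64, and 0.08 ± 0.14). The remaining 4 pairs had a ligand that was not called, as Vegfa with Kdr (-0.2 ± 0.16, and -5.24 ± 0.84). Without the 2 libraries 16 pairs ran from epithelium to mesenchyme and 7 the other way. The listing joins levels of RNA and says nothing of binding.

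**Figure D4:**
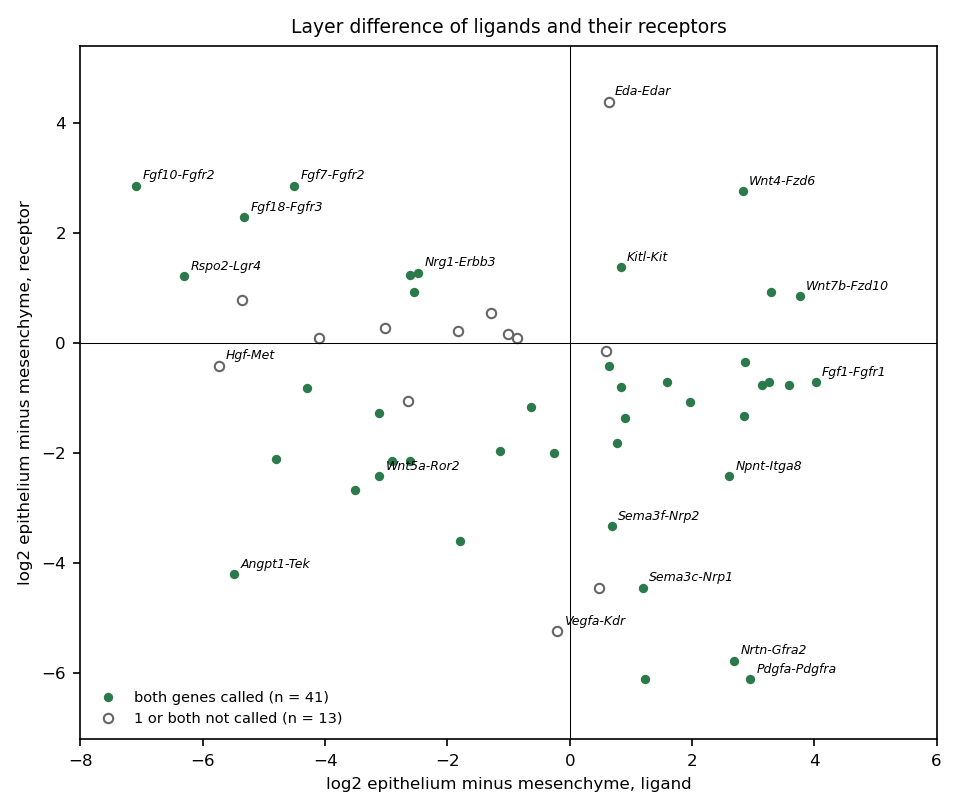
Log2 difference between epithelium and mesenchyme of the ligand (x axis) and of the receptor (y axis) for the 54 pairs with both genes at 5 CPM or more, filled where both genes were called (n = 41) and open where 1 or both were not (n = 13). Pairs from mesenchyme to epithelium lie at the upper left, such as Fgf10 with Fgfr2, and pairs from epithelium to mesenchyme at the lower right, such as Pdgfa with Pdgfra and Nrtn with Gfra2.

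An example from epithelium to mesenchyme was Pdgfa, a platelet-derived growth factor, with its receptor Pdgfra. Pdgfa had 426, 459.6 and 556 CPM in epithelium and 129.8, 45.2, 30.6 and 42.4 in mesenchyme (log2 difference 2.96 ± 0.38, adjusted p = 3.14e-05), and Pdgfra had 0.583, 15.7 and 1.3 against 412, 384, 466 and 359 (log2 difference -6.11 ± 1.01, adjusted p = 3.04e-04). Npnt, nephronectin of the basement membrane, was epithelial (109.8, 439 and 339.9 CPM against 66.3, 44, 40.5 and 44.1, log2 difference 2.6 ± 0.36, adjusted p = 5.35e-05), and its receptor, the integrin gene Itga8, mesenchymal (25.8, 10.1 and 11.3 CPM against 97.8, 65.2, 85.5 and 89.8, log2 difference -2.43 ± 0.54, adjusted p = 0.0024). From mesenchyme to epithelium Rspo2 met Lgr4. Rspo2 had 0.0416, 1.87 and 0 CPM against 36.9, 58.6, 62.2 and 46.9 (log2 difference -6.31 ± 0.94, adjusted p = 1.11e-04) and Lgr4 70.9, 145 and 58.3 against 27.8, 26.7, 42.4 and 60.9 (log2 difference 1.21 ± 0.33, adjusted p = 0.0081), a call on Lgr4 that was lost without epithelium replicate 2 (0.7, adjusted p = 0.069), when Rspo2 stood at -11.02.

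Markers of other cell types were mostly mesenchymal, and their part in the counts above was not tested. All 20 endothelial markers were lower in epithelium, with sums of 19.5 to 79.4 CPM in epithelium and 762 to 884 in mesenchyme. Kdr, a VEGF receptor, had 0.208, 6.96 and 0.191 CPM against 105, 88.8, 101 and 79.7 (log2 difference -5.24 ± 0.84, adjusted p = 2.38e-04), and Cdh5 of endothelial junctions 0.0416, 3.34 and 0 against 70.4, 53, 92.2 and 45.9 (log2 difference -5.84 ± 0.87, adjusted p = 1.37e-04). Without epithelium replicate 2 these differences were -8.85 and -11.37. Of 19 macrophage markers 18 were lower, with sums of 8.59 to 33.0 against 146 to 178 CPM. Skeletal muscle markers were lower in 25 of 26 cases, with sums of 173 to 378 against 1707 to 3373 CPM. Actc1, an actin of embryonic muscle, had 2.71, 11.7 and 0.0763 CPM against 766, 679, 456 and 373 (log2 difference -6.88 ± 1.06, adjusted p = 1.75e-04), and the muscle regulator Myf5 0, 0.194 and 0.0763 against 13.2, 15.8, 10.8 and 7.84 (log2 difference -6.94 ± 0.76, adjusted p = 3.29e-06).

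**Figure D5:**
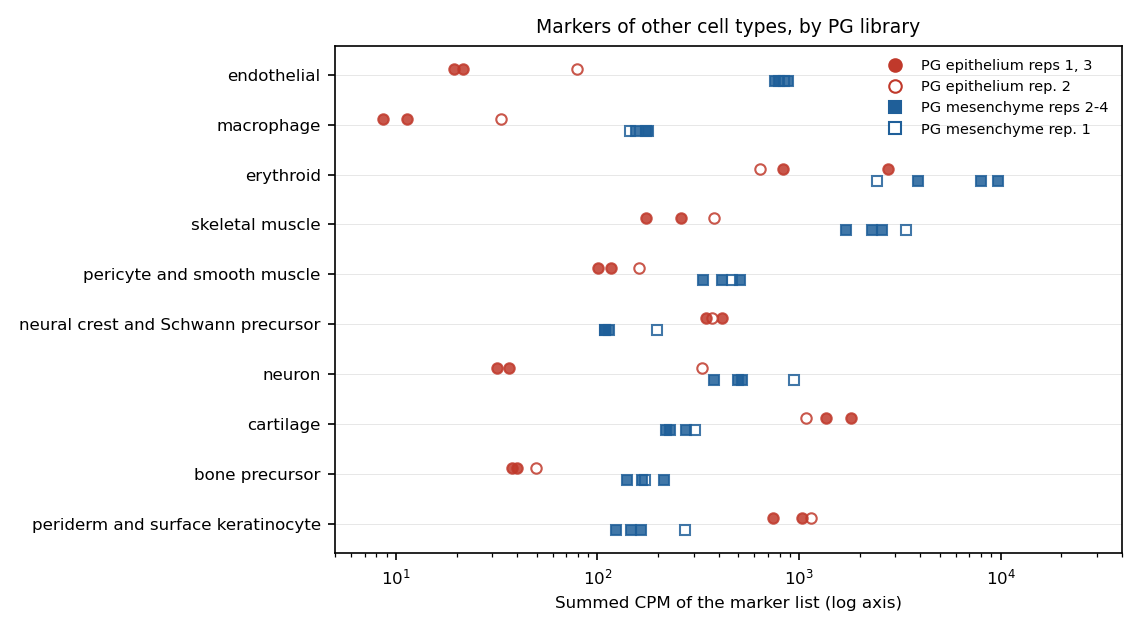
Summed CPM of 10 lists of marker genes in each PG library on a log axis, red circles for epithelium, blue squares for mesenchyme and open symbols for epithelium replicate 2 and mesenchyme replicate 1. Neuron markers reach 330.1 CPM in epithelium replicate 2 and at most 36.3 in the other epithelial libraries, and erythroid markers overlap between the layers.

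Of 15 erythroid markers 11 were lower in epithelium and 1 higher, with a median log2 difference of -2.8. Their sums overlapped, at 642 to 2747 CPM in epithelium and 2448 to 9708 in mesenchyme, with epithelium replicate 1 the highest of its layer. The embryonic globin gene Hbb-y had 1232, 253 and 321 CPM against 1198, 2449, 4044 and 6369 (log2 difference -2.55 ± 0.73, adjusted p = 0.012), a call lost without epithelium replicate 3 (adjusted p = 0.055). The transferrin receptor gene Tfrc, which dividing cells also use, was the higher one (283, 216 and 214 CPM against 82.3, 83.3, 74.4 and 79.1, log2 difference 1.57 ± 0.13, adjusted p = 2.78e-07). Bone precursor markers were low in both layers, 37.9 to 49.5 and 140.4 to 214 CPM. Pericyte and smooth muscle markers summed to 101 to 161 CPM in epithelium and 332 to 509 in mesenchyme, where most of it was Acta2 (7.58, 25 and 3.51 against 297, 353, 239.8 and 173, log2 difference -4.46 ± 0.76, adjusted p = 3.95e-04).

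Cartilage markers summed to more in the epithelium, 1079 to 1806 CPM, than in the mesenchyme, 219.7 to 304 CPM, and the genes behind this were few. Of 13 tested 7 were higher and 3 lower in epithelium. Col2a1, the main collagen of cartilage, had 596, 412 and 481 CPM against 106, 102, 120.3 and 81.9 (log2 difference 2.28 ± 0.18, adjusted p = 1.82e-07), and Sox9, a regulator of both cartilage and gland buds, had 761, 413 and 589 against 90.5, 39.6, 34.1 and 37.2 (log2 difference 3.54 ± 0.34, adjusted p = 2.61e-06). Col9a3 and Col9a1 were higher too (4.86 ± 0.4 and 4.44 ± 0.36). Hapln1, which links cartilage proteoglycan, was lower (0.167, 0.816 and 0.382 CPM against 20.2, 9.95, 13.2 and 10.02, log2 difference -4.85 ± 0.54, adjusted p = 3.96e-06), and so was Col11a1 (-1.58 ± 0.25). Of 14 neural crest and Schwann precursor markers 4 were higher and 5 lower in epithelium, against 21.9 and 24.2% of all genes tested. Without the 2 libraries 4 of the markers were higher and 6 lower. Their sum was 345 to 417 CPM in epithelium and 109 to 198 in mesenchyme. The higher ones include Sox10 (131, 72.4 and 81.8 against 16, 7.07, 6.62 and 12.1, log2 difference 3.19 ± 0.4, adjusted p = 1.99e-05) and Erbb3.

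Neuron markers set epithelium replicate 2 apart from its group. Their sum was 36.3, 330.1 and 31.8 CPM in epithelium and 379 to 949 in mesenchyme. Stmn2, of growing axons, had 0.208, 39.3 and 0.0763 CPM in epithelium against 24.8, 15.1, 14.5 and 3.97 and was not called (adjusted p = 0.94), but was lower in epithelium without that library (-6.67, adjusted p = 6.04e-05). Nefl, a neurofilament gene, had 0.75, 41.1 and 0.458 CPM against 586, 197, 208 and 123 (log2 difference -4.3 ± 1.21, adjusted p = 0.011, -8.86 without it). Tubb3 was likewise called once it was left out (0.791, 38.6 and 0.763 CPM against 34.4, 52.2, 64 and 50.2, adjusted p = 0.13, 8.93e-09 without). Of the 14 neuron markers tested 3 were higher and 2 lower with all libraries, and 1 higher and 9 lower without the 2. With the PG libraries alone 1 was higher and 0 lower.

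Some neuronal genes were high in epithelium replicate 2 and nowhere else in the PG, the mesenchyme included. Sncg, gamma-synuclein of sensory neurons, had 0.333, 31.4 and 0.267 CPM against 1.45, 2.02, 1.67 and 1.5, and Ina, alpha-internexin, 0.791, 17.3 and 0.916 against 0.483, 0.816, 1.33 and 0.726. Prph, peripherin, had 0.0833, 13 and 0.0382 CPM against 3.33, 0.855, 1.17 and 0.339, and Stmn3 0.25, 17.3 and 0.0763 against 0.0878, 0.0777, 0.416 and 0. Prdm12, a factor of pain-sensing neurons, had 0.167, 5.4 and 0.0382 CPM against 0.132, 0.0777, 0 and 0.0484. Sncg, Prph, Stmn3 and Prdm12 were chosen after their values were seen and belong to 19 genes with at least 5 CPM that stood in this library at 3 times or more the level of any other PG library. For epithelium replicates 1 and 3 there were 5 and 1 such genes. Sncg and Prph were not called with all libraries (2.68 ± 1.13 and 1.61 ± 1.34, adjusted p = 0.07 and 0.36). Both were called lower in epithelium without replicate 2 (-2.46 and -4.47, adjusted p = 0.0047 and 0.0049), and the call of Ina as higher (2.91 ± 0.95, adjusted p = 0.022) was lost without it (0.01, adjusted p = 0.99). Sncg was called higher without epithelium replicate 1 or 3 (3.25 and 3.24, adjusted p = 0.019 and 0.016). The call of Ina was also lost without mesenchyme replicate 1, 2 or 4 (adjusted p = 0.053, 0.052 and 0.051).

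The 3 epithelial libraries also differed among themselves in genes of the epithelium. Replicate 1 was lowest for Krt5 and Krt14, for Itgb4, an integrin of hemidesmosomes (55.2, 123 and 128 CPM), for Wnt7b and for Wnt9b (51.3, 144 and 151 CPM). It was highest for Cldn4, Barx2, Sox9 (761, 413 and 589 CPM), Etv5, Col9a1 (151, 51.8 and 79.98 CPM) and Edar. Epcam, Cdh1, Esrp1, Bmp7 and Lama5 varied little between them, by at most 1.29 times from the lowest to the highest. With 3 libraries these differences were not tested.

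Genes of the cell cycle leaned towards the epithelium by small amounts. Of 38 S phase genes 18 were higher and 4 lower, with a median log2 difference of 0.16 against -0.01 for all genes tested, and of 40 genes of G2 and mitosis 17 were higher and 1 lower, with a median of 0.23. Uhrf1, which maintains DNA methylation, had 412, 305 and 348 CPM against 182, 124, 209 and 200.4 (log2 difference 0.99 ± 0.17, adjusted p = 1.71e-04), and Ect2, which drives cell division, 213, 175 and 174 against 104, 109, 108 and 113 (log2 difference 0.79 ± 0.1, adjusted p = 1.45e-05). Mki67 and Top2a were not called (0.2 ± 0.1 and 0.09 ± 0.11, adjusted p = 0.13 and 0.51). Ccnd1, cyclin D1, was lower in epithelium (79.2, 100.3 and 25.9 CPM against 216, 102, 246 and 197, log2 difference -1.48 ± 0.42, adjusted p = 0.012), with epithelium replicate 3 far below the others, and Myc was higher (238, 163 and 216 CPM against 89.6, 60.4, 64.4 and 54.8, log2 difference 1.61 ± 0.17, adjusted p = 2.87e-06).

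Among 33 genes of glycolysis and the response to low oxygen 11 were higher and 4 lower, with a median log2 difference of 0.16, and without the 2 libraries 10 and 6, with a median of -0.01. They include the glucose carrier gene Slc2a3 at 202, 192 and 313 CPM against 62.7, 40.8, 29.9 and 39.9 (log2 difference 2.44 ± 0.23, adjusted p = 8.83e-07) and Slc2a1 at 181, 297 and 229 against 109, 89.8, 90.9 and 90.6 (log2 difference 1.31 ± 0.14, adjusted p = 2.00e-06). Cholesterol synthesis genes were lower in 13 of 24 cases and higher in 1. Insig1, a sensor of sterols, had 31.7, 37.5 and 36.4 CPM against 76, 98.9, 81.3 and 95.8 (log2 difference -1.32 ± 0.16, adjusted p = 9.99e-06), and Mvd 19.7, 25.6 and 20.3 against 38.2, 43.7, 40.3 and 42.4 (log2 difference -0.91 ± 0.14, adjusted p = 5.50e-05). Mitochondrially encoded genes were lower in 5 of 10 cases, with mt-Cytb at 1364, 2182 and 1502 CPM against 2188, 2867, 2573 and 2654 (log2 difference -0.61 ± 0.19, adjusted p = 0.015), a call lost without epithelium replicate 1 or 3 (adjusted p = 0.092 and 0.063). For cytosolic ribosomal proteins the calls depended on the 2 libraries, with 1 higher and 3 lower of 81 when they were kept and 1 higher and 35 lower without them.

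Some abundant genes lay at like levels in both layers and are given because of it, with no test. Nedd4, a ubiquitin ligase, had 2057, 2017 and 2158 CPM against 2214, 2106, 1989.6 and 1873 (0.02 ± 0.07), and Hnrnpa2b1, which binds RNA, 1982, 1798 and 1559.8 against 1721, 1772, 1945 and 1914 (-0.05 ± 0.08). Gpc3, a glypican, had 1406, 1108 and 1235 CPM against 1546, 1518, 1244 and 1168 (-0.13 ± 0.1). Their libraries overlapped between the layers.

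The layer difference of the PG was set against that of the SMG in the same fit, a test of the difference between the differences. It called 2705 of 18940 genes (14.3%). Sox10 had a larger epithelial excess in the PG (3.03 ± 0.52, adjusted p = 0.0016, and 3.5 without the 2 libraries), with SMG means of 31.5 CPM in epithelium and 28.3 in mesenchyme. Col9a1 did so as well (4.91 ± 0.46, adjusted p = 1.65e-05). For Osr2 and Barx1 the mesenchymal excess was larger in the PG (-3.59 ± 0.82, adjusted p = 0.011, and -2.79 ± 0.82, adjusted p = 0.038), in both cases also without the 2 libraries (-5.48 and -4.91). Without epithelium replicate 2 alone these were -5.66 and -4.83, and Barx1 was not called without epithelium replicate 3 or mesenchyme replicate 2, 3 or 4 (adjusted p from 0.057 to 0.086).

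Of the 40 epithelial identity genes 32 had a smaller layer difference in the PG than in the SMG and 0 a larger one, with a median of -4.24, Cdh1 by -5.59 ± 1.19 (adjusted p = 0.0075) and Krt14 by -5.3 ± 0.99 (adjusted p = 0.0033). Without the 2 libraries Cdh1 and Krt14 stood at -4.2 (adjusted p = 0.0048) and -5.26 (adjusted p = 0.007). In that fit 30 of the 40 genes had a smaller layer difference in the PG and 0 a larger one, with a median of -3.3. Beside this, epithelial markers stood at 2.89 to 18.1% in PG mesenchyme and at 0.142 to 0.495% in SMG mesenchyme, and the part of that difference in the result was not tested. Fgf10 was not called to differ between the glands in this respect (2.34 ± 1.17, adjusted p = 0.22). It was called without mesenchyme replicate 1 (3.04, adjusted p = 0.041), but not without the 2 libraries (2.34, adjusted p = 0.19). Nor was it called on leaving out any other single PG library (adjusted p from 0.16 to 0.54). Gland and embryonic day cannot be told apart in any of these tests.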

How the data were processed

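RNA of PG epithelium, PG mesenchyme, SMG epithelium and SMG mesenchyme was made into full-length cDNA libraries and sequenced, per the labels' protocols, in a way that does not mark the strand. The authors deposited raw counts per gene for 15 libraries, which are the only values used here. A table of normalized CPM was also deposited and was not used. STAR 2.5.2a, edgeR, limma, DESeq2 and the builds GRCm38.p3 and mm10 are named in the submitters' processing notes without their roles. The sources used here do not say which program counted the reads, with which strand setting or on which annotation release.

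The table held 48709 gene identifiers, 48349 of which were given a symbol by GENCODE M21 (GRCm38), and 92 spike-in rows with 407 to 996 counts per library, which were left out. Genes were kept by edgeR's filterByExpr over the 4 groups (18940 genes), scaled by TMM and fitted with the quasi-likelihood F-test of edgeR 4.0.16 (R 4.3.3, limma 3.58.1, robust, two-sided) on all 15 libraries with 1 mean per group, Benjamini-Hochberg adjusted over all genes tested, at a threshold of 0.05. Standard errors were taken from the fitted difference and its F statistic. Where the lower layer held 1 to 3 counts, a ratio with its exact 95% interval is given. Intervals cover counting error only, since the reads carry no molecular identifiers. Gene positions come from GENCODE M21 and the windows before gene starts from RefSeq (GRCm38.p6).

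Genes were named by a rule over markers, gene lists, families and pairs, by size of difference and level (777 genes), and genes added after their values were seen are marked as such. Some genes that the rule picks are not reported here. The members and lists were chosen with earlier results of these data known. Of the 777 genes 225 overlap an exon of a neighbouring gene, in 198 cases on the opposite strand, and their counts are uncertain to that extent, among the genes described Fgfr2, Rarb, Nid2, Nefl, Ina, Prdm12, Gas1, Hand2, Col9a3, Krt5, Col3a1 and Bmp6. Replicate libraries differed from each other by more than sampling noise. The p-values rest on a spread estimated from all 15 libraries, the SMG included, so they do not measure the spread of the PG libraries alone. Alternatives were DESeq2 1.42.0, median-ratio size factors, no filter, the PG libraries alone, leaving out single libraries or both doubted ones, and a block for the replicate number. Same-numbered libraries of the 2 layers did not deviate together (r = 0.059, -0.012 and -0.188 across genes). Libraries of different number gave r from -0.113 to 0.155. The layers were treated as unpaired, though so few libraries cannot exclude a pairing.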

Additional observations from a re-analysis of the deposited data

Results flagged for a closer look

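In the 4 PG mesenchyme libraries 15 of 46 values tested had 1 library far from the other 3, measured by its gap to the nearest against the whole range. Chance would mark about 1 in 20 such groups if they were unrelated. Most of these values are epithelial genes measured in the same libraries, so the count does not test chance. In 13 of the 15 the library was replicate 1, already set apart above by its epithelial RNA. It had the highest level of the epithelial genes Epcam (92.1 CPM), Cdh1 (66.3), Esrp1 (39.0), Grhl2 (23.3), Trp63 (121), Krt8 (27.3) and Lama5 (45.7). The same held for Sox9 (90.5 CPM), Foxc1, a forkhead factor gene (21.0), Bmp7 (50.9) and Etv5 (112), all higher in PG epithelium, and for the median share of epithelial identity genes (18.1%). Fgf10, a mesenchymal gene, was also highest there (233 CPM). The remaining values were Zeb1 in replicate 4 (65.1 CPM) and Shh in replicate 2 (0.0389 CPM, a single count).

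The layer difference of 20 of the 45 genes plotted by library differed between PG and SMG (edgeR, interaction term, adjusted p under 0.05). The share over all genes tested was 14.3% (2705 of 18940), and the 45 were picked as markers and regulators. For the epithelial genes the layer difference was smaller in the PG, on the log2 scale by -3.19 for Epcam, -5.59 for Cdh1, -4.78 for Esrp1, -3.9 for Grhl2 and -2.83 for Trp63. The keratin genes stood at -4.11 (Krt5), -5.3 (Krt14), -5.06 (Krt8) and -5.32 (Krt19). Cldn4 stood at -5.39, Barx2 at -3.37, Lama5 at -3.36, Itgb4 at -2.45, Sox9 at -1.44 and Fgfr2 at -1.26. Some of these calls rest on single libraries. That of Epcam was lost without epithelium replicate 1, 2 or 3 (adjusted p = 0.059, 0.063 and 0.062), and its value was -1.92 without mesenchyme replicate 1 and -1.83 without both doubted libraries (adjusted p = 0.0011). Sox9 was not called without both (-0.78, adjusted p = 0.062), nor without epithelium replicate 2 or 3 or mesenchyme replicate 2 (0.11, 0.095 and 0.052). Without epithelium replicate 1 or 2, Fgfr2 (0.075 and 0.055) and Trp63 (0.071 and 0.0501) were not called. Beside these values, epithelial identity genes stood at 2.89 to 18.1% of their epithelial level in PG mesenchyme and at 0.142 to 0.495% in SMG mesenchyme, and the part of this in the differences was not tested.

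Among mesenchymal genes the excess in mesenchyme was larger in the PG for Osr2 (-3.59), Barx1 (-2.79) and Wnt5a (-2.07). Sox10 (3.03) and Cited1, a transcriptional cofactor gene (3.04), leaned more to the epithelium in the PG than in the SMG. Gland and embryonic day cannot be told apart here.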

How the results depend on the processing

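The numbers of genes called stayed within 1.5 times of 4139 higher and 4582 lower under every alternative listed above. The PG libraries alone without both doubted ones were also fitted, and the numbers of that fit are not reported here. They were 3401 and 3950 with the PG libraries alone, 4220 and 4839 with DESeq2, and 3431 to 4171 and 4032 to 4635 when 1 PG library was left out. At a log2 of at least 1 the latter ranges were 1802 to 2075 and 2684 to 3095, and those of the interaction 2318 to 2744. Same-numbered libraries showed no shared deviation, though so few libraries cannot exclude a pairing. With the replicate number as a block 3639 genes were called higher and 4286 lower. Leaving out 1 library at a time gave log2 differences of -2.46 to 3.25 for Sncg and -4.47 to 2.45 for Prph, negative only without PG epithelium replicate 2. Without both doubted libraries Sncg, Prph and Ina stood at -2.52, -3.63 and -0.18, against 2.68, 1.61 and 2.91 with all. The cause was not tested. The median share of mesenchymal identity genes in PG epithelium moved to 9.83, 16.2 and 12% when the mean over markers was taken. Leaving out both doubted libraries moved the number of lower genes from 2 to 9 for neuron markers, 5 to 8 for pericyte and smooth muscle markers, 3 to 35 for ribosomal proteins and 6 to 12 for forkhead genes. Fitting the PG libraries alone moved the number of higher genes from 20 to 14 for keratins, 9 to 7 for TMPRSS genes and 17 to 14 for periderm markers. For S phase genes it went from 18 to 12 and for G2 and mitosis genes from 17 to 12. The epithelial identity list stayed at 40.

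PG epithelium has 3 libraries, and leaving out replicate 2 moved the log2 differences of 21 of the 232 genes described and tested by over 1.5 times, counting called genes. Leaving out PG mesenchyme replicate 1 did so for 3, and PG epithelium replicate 3 for 1, Jag1. The first and second are the libraries with the most RNA of the other layer, and its part in the sizes was not tested. Values under about 1 CPM rest on few counts.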

Other observations

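Of 23 cadherins tested 3 were higher in PG epithelium and 18 lower. Cdh3, P-cadherin of basal epithelium, had 203, 215 and 241 CPM in epithelium and 37.8, 8.36, 7.25 and 9.44 in mesenchyme (log2 difference 3.81 ± 0.5, adjusted p = 4.46e-05). Cdh11, the cadherin of loose mesenchyme, had 23.3, 51.8 and 16.8 CPM against 709.6, 801, 907 and 774 (log2 difference -4.7 ± 0.47, adjusted p = 4.14e-06), and Cdh6 had 0.0833, 2.06 and 0.153 against 92.8, 71.5, 97.3 and 84.2 (log2 difference -6.8 ± 0.69, adjusted p = 4.35e-06, -9.45 without epithelium replicate 2). For all of them the layers did not overlap.

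Eph receptors, which sort cells at boundaries, gave 3 genes higher and 7 lower in PG epithelium of 14. Epha3 was mesenchymal, with 0.708, 12 and 2.02 CPM against 1352, 626, 729.8 and 479 (log2 difference -7.33 ± 1.15, adjusted p = 1.99e-04). Epha1 and Epha2 were higher in epithelium (2.34 ± 0.36 and 2.24 ± 0.4). Their ligands, the ephrins, had 3 higher and 4 lower of 8, all by a log2 under 1.3 in size. Tbx18, a T-box gene of mesenchyme, had 0.541, 1.17 and 0.343 CPM against 499, 227, 303 and 253 (log2 difference -8.86 ± 0.73, adjusted p = 9.61e-07).

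Among 26 genes of bud shape and actomyosin 12 were higher in PG epithelium and 6 lower. Celsr1 and Celsr2, planar polarity cadherins, were higher (119, 111 and 132 CPM against 23.7, 7.42, 11.9 and 14.5, log2 difference 3.07 ± 0.25, adjusted p = 3.63e-07, and 2.67 ± 0.24 for Celsr2). Arhgef19, an activator of small GTPases, was higher as well (186, 212 and 217 CPM against 34.8, 7.58, 9.99 and 9.44, log2 difference 3.73 ± 0.43, adjusted p = 1.32e-05). Myh10, a non-muscle myosin, and Rock2, a kinase that activates it, were not called (-0.2 ± 0.14 and -0.1 ± 0.08, adjusted p = 0.28 and 0.31). Without epithelium replicate 1 Myh10 was called lower (-0.37, adjusted p = 0.044). Of 24 immediate early genes 2 were higher and 2 lower, and Egr1 and Fos were not called (667, 781 and 1362 CPM against 813, 626, 96.9 and 284, adjusted p = 0.44, and 368, 338 and 989 against 659, 584, 94.9 and 303, adjusted p = 0.74).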
